A study of Mus musculus with 6 samples.

Results

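The transcripts described here belong to genes listed as Paneth cell products and alpha-defensins, measured in mouse duodenum. They were chosen by name: every row of the gene tables whose symbol starts with Defa, with none starting with Defcr, and the rows of Lyz1, Mmp7, Ang, Ang4, Itln1, Pla2g2a, Nupr1 and Habp2. A row is 1 annotated locus, so a gene with 2 annotated loci has 2 rows. The choice gave 27 of 23699 rows for 25 symbols, of which 19 rows are alpha-defensins and 8 are other products. Guca2a was left out. The set includes pseudogene rows and Nupr1, which encodes a nuclear protein, so not every row stands for a secreted product. The series profiled RNA from the first 2 cm of duodenum after the stomach in 3 mutant and 3 control libraries, all from mice 6 weeks old on a mixed background. The mutants, TNint mice, were Nkx2.2flox/TN; Villin-Cre/+; Rosa26Tomato/+, and Villin-Cre makes Cre recombinase in intestinal epithelium. TN is known as an allele of the transcription factor gene Nkx2.2 with a mutated tinman domain. Controls 1 and 2 were Nkx2.2flox/+; Rosa26Tomato/+ and control 3 was Nkx2.2flox/+, with no Tomato reporter and no Cre in any control. All 6 libraries thus carried a floxed Nkx2.2 allele, and the groups differed in Cre as well as in the second Nkx2.2 allele, whose parts cannot be told apart. The labels give no litter, sex or sequencing lane and do not say that each library is a separate animal, so p-values measure the spread between these libraries.

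Paneth cells sit at the base of the crypts of the small intestine next to the stem cells and release granules of antimicrobial proteins into the crypt. The alpha-defensins of the mouse, also called cryptdins, are short cationic peptides cut from longer precursors by the protease matrilysin, the product of Mmp7. The other granule proteins include lysozyme, an enzyme that digests bacterial cell walls, a secreted phospholipase and ribonucleases of the angiogenin family. In the mouse the alpha-defensin genes lie in 1 cluster on chromosome 8 whose copies are so alike that short reads from 1 gene often match several.

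The copies are shown first because every alpha-defensin value below depends on how reads were shared among them. The lines below are the last 105 bases of the coding sequence, stop codon included, read from the mm9 genome's annotated transcripts. They run 5′ to 3′ on the gene's strand, and capitals mark a base held by fewer genes than the commonest base at that position, among 10 alpha-defensin genes of equal coding length. Where bases tied as commonest, all of them stay in lower case.
Defa24: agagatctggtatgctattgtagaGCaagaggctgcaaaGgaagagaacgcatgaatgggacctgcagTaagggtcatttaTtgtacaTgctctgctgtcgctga
Defa17: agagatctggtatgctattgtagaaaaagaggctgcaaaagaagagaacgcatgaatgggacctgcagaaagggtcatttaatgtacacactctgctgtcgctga
Defa3: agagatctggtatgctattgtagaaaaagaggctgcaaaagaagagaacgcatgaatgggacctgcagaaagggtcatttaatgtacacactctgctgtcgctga
Defa23: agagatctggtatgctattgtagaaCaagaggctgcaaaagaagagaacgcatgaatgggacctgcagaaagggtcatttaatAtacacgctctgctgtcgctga
Defa-rs7: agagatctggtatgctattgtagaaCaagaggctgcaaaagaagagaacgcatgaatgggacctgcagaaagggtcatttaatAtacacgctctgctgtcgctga
Defa5: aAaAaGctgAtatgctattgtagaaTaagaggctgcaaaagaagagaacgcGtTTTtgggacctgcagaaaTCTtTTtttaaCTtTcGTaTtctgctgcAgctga
Defa21: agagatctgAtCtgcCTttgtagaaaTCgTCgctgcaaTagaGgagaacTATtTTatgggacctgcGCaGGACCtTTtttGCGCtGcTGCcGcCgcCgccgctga
Defa22: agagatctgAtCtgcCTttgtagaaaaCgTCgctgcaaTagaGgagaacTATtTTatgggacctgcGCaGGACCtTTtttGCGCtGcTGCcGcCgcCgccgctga
Defa26: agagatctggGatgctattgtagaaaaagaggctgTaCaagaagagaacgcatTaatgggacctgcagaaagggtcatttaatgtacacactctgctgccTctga

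Defa3 and Defa17 had no base in which their coding sequences differed, and neither had Defa23 and Defa-rs7. Defa21 and Defa22 differed at 2 of 282 coding bases. Among the 16 genes of the cluster with a coding sequence of 282 bases, Defa-named or not, the 120 pairs were 78.0% to 100% identical with a median of 85.1%. The nearest copy of Defa24, the most abundant member, was Gm15284 with 4 differing bases, a locus with no Defa name in these tables that RefSeq now calls Defa30. Defa5 was nearest to Gm10104, now Defa35, and to Gm15293, with 3 differing bases each.

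How many short reads could be placed was counted as the share of 50-base windows of each transcript found in no other annotated protein-coding transcript and nowhere else in the cluster on chromosome 8 (mm9). This share was 0% for Defa23, Defa-rs7 and Defa5, 7.76% for Defa3, 8.05% for Defa17 and 13.3% for Defa20. It was 27.1% for Defa21, 24.9% for Defa22, 59.8% for Defa26 and 71.6% for Defa24. Outside the cluster it was 84.0% for Lyz1, whose near copy is Lyz2, 59.3% for Ang, 95.5% for Ang4 and 99.0% for Itln1, and 100% for Mmp7, Nupr1 and Habp2. No source used here gives the read length, and the shares depend on it. With 36-base windows the share was 51.6% for Defa24, 39.5% for Defa26, 18.8% for Defa21 and 10.9% for Defa22. With 100-base windows it was 100% for Defa24, 98.9% for Defa26, 59.6% for Defa21, 59.4% for Defa22, 25.5% for Defa20 and 11.6% for Defa5, and still 0% for Defa23 and Defa-rs7. Defa4 and Defa6 had no entry in the annotation searched. The Defa6 row lies within Defa24, and the shares of Defa24 do not count sequence that it has in common with Defa6.

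Annotated loci also overlapped one another. Defa6 (chr8:22845009-22845849) lay within Defa24 (chr8:22844966-22845943), Defa4 lay within Gm15315, and both loci of Defa23 shared their start with the 2 loci of Defa-rs7. Outside the cluster Ang shared its start with Rnase4, another ribonuclease gene, Pla2g2a lay within Pla2g5, and the end of Habp2 touched Nrap. The FPKM of each such row, and of each alpha-defensin row, is uncertain to the extent that reads were divided between copies.

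The reads behind the libraries, worked out from the FPKM confidence intervals, summed to 16.88, 25.91 and 21.97 megareads for mutants 1, 2 and 3, and to 14.21, 21.25 and 19.91 megareads for controls 1, 2 and 3. Nkx2-2, the targeted gene, had 0.748, 0.744 and 0.666 FPKM in the mutants and 1.00, 1.03 and 1.27 FPKM in the controls, with no overlap between the groups and a limma adjusted p of 0.79. The whole row was measured, so these values do not check which allele was transcribed. The tissue was whole duodenal wall, in which fewer Paneth cells and less RNA per Paneth cell cannot be told apart.

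The defining products of Paneth cells were abundant in every library. The 27 rows made up 4.35%, 4.31% and 5.08% of all FPKM in the mutants and 4.63%, 4.34% and 5.46% in the controls. The alpha-defensin rows alone made up 3.32%, 3.62% and 4.06% in the mutants and 3.55%, 3.62% and 4.44% in the controls. FPKM divides by transcript length, and most alpha-defensin transcripts are short. Of the reads implied by the intervals the 27 rows took 0.840%, 0.769% and 1.10% in the mutants and 0.909%, 0.787% and 1.15% in the controls. Intervals that are wide also give few implied reads: 4 alpha-defensin rows that the authors' tables mark as poorly estimated held 0.959%, 0.880% and 0.940% of all FPKM in the mutants and 0.928%, 0.901% and 1.10% in the controls, but at most 0.0153% of implied reads in any library.

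No member changed past the threshold between mutants and controls. limma on log2(FPKM + 0.1), with Benjamini-Hochberg adjustment over all 15864 tested rows at 0.05, called 0 of the 25 tested members, against 0% of all tested rows. At an unadjusted p under 0.05 it called 0 of 25, against 1.49% of all rows higher and 4.32% lower in mutants. That tilt depended on the scaling: over all rows it was 237 higher and 685 lower here, 498 higher and 413 lower with median-of-ratios scaling, and 360 higher and 431 lower with quantile normalization, while 0 of 25 members had such a p under either. The smallest unadjusted p among members was 0.268, for Lyz1 (adjusted p = 0.81). None of the 25 had groups that did not overlap, against 3.13% of all rows with mutants above and 9.92% with mutants below the controls. The log2 fold change was positive for 11 members and negative for 14, beside 6142 and 9722 of all tested rows. The median was -0.02, beside -0.05 over all tested rows. The authors' deposited table called 7 of 18541 genes, 0.0378%, at an adjusted p of 0.05, and no member was among them.

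**Figure D1:**
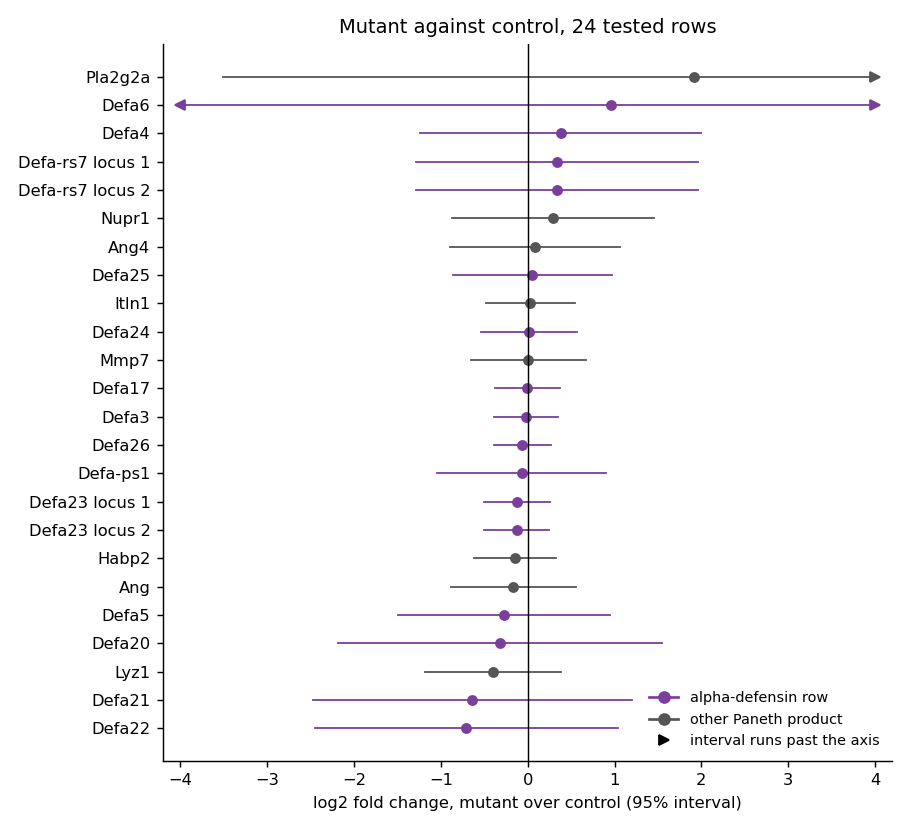
Log2 fold change of mutant over control on the log2(FPKM + 0.1) scale (x axis) for 24 tested rows (y axis), with points for limma estimates, bars for 95% intervals and arrows where an interval runs past the axis. Every interval holds 0, and those of Defa17, Defa3 and Defa26 are narrow beside those of Defa6 and Pla2g2a.

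The alpha-defensins are described by level. Defa24 (chr8:22844966-22845943) was the most abundant, at rank 5 of all rows by mean FPKM. It had 8024, 9153 and 11485 FPKM in the mutants and 8803, 8637 and 10809 FPKM in the controls. The groups overlapped, and replicate 3 was the highest in each. The log2 fold change was 0.01 with a 95% interval from -0.54 to 0.56. Summing Defa24 with Defa6, which overlaps it, gave 9998 ± 1361 FPKM in mutants and 9587 ± 1072 FPKM in controls (SD, n = 3 each).

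Defa17 (chr8:22766239-22767208) and Defa3 (chr8:22427088-22428056) are the pair with identical coding sequences. Defa17 had 3469, 3329 and 3837 FPKM in the mutants and 3248, 3450 and 4003 FPKM in the controls. Defa3 had 3153, 3061 and 3534 FPKM in the mutants and 2997, 3188 and 3709 FPKM in the controls. In both genes control 3 was the highest and control 1 the lowest of the 6. Their sum, which does not depend on how reads were divided between these 2, was 6794 ± 513 FPKM in mutants and 6865 ± 760 FPKM in controls (SD, n = 3 each). The limma interval of the log2 fold change was -0.38 to 0.37 for Defa17 and -0.39 to 0.35 for Defa3.

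Defa23, which has 2 annotated loci, had 2593, 2429 and 2834 FPKM at the first locus in the mutants and 2569, 2703 and 3347 FPKM there in the controls. Control 3 was highest and mutant 2 lowest, and the second locus (chr8:22331252-22332228) had near-equal values. All 6 libraries carry the mark LOWDATA for Defa23 in the authors' tables, which Cufflinks sets where a locus is too complex or too shallow to estimate well, and the lower bound of each interval is 0. Defa-rs7, whose rows cover the same 2 loci and which RefSeq now names Defa31, had 76.6, 217 and 58.8 FPKM at the first locus in the mutants and 31.2, 102 and 151 FPKM in the controls. Mutant 2 was the highest and control 1 the lowest, so the order of libraries differed from that of Defa23. The 4 rows summed gave 5464 ± 272 FPKM in mutants and 5930 ± 937 FPKM in controls (SD, n = 3 each).

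**Figure D2:**
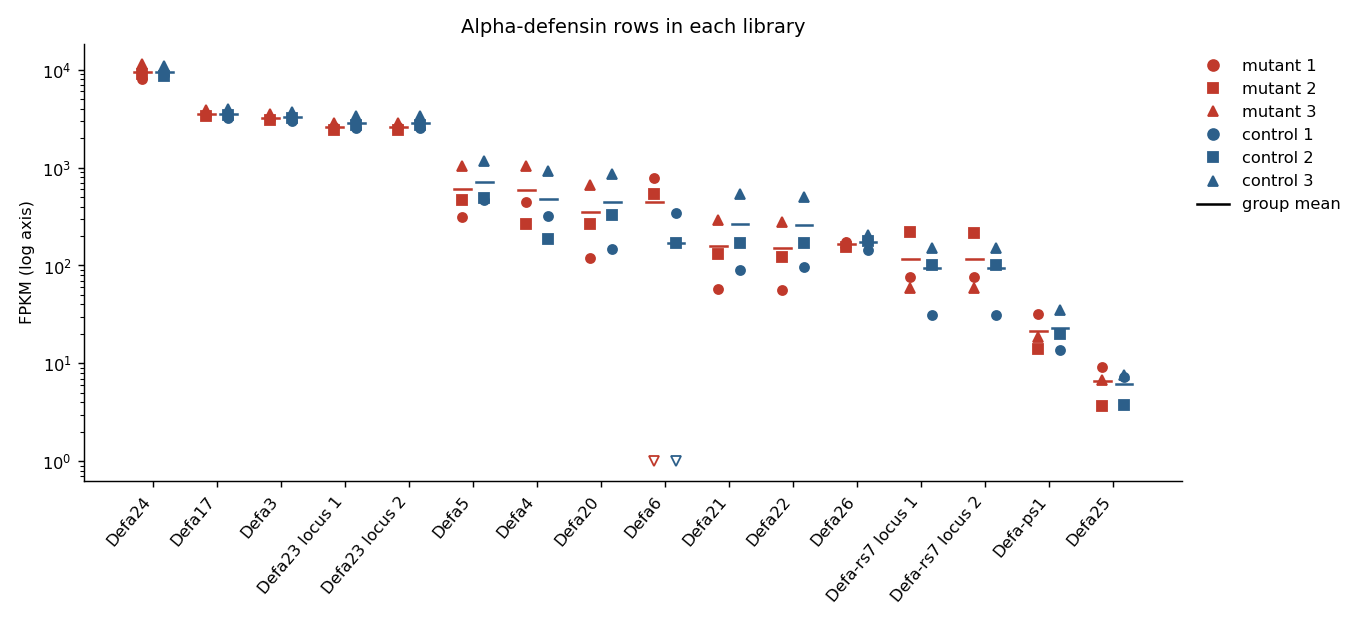
FPKM on a log axis (y axis) of 16 alpha-defensin rows above 0 (x axis), ordered by mean, with mutants in red left of controls in blue, symbols for replicate numbers and lines for group means. The 5 rows at the left, all above 1000 FPKM, lie close together across libraries, rows such as Defa20, Defa21 and Defa22 spread widely with replicate 3 highest in both groups, and open triangles mark Defa6 values below 1 FPKM.

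The alpha-defensins of lower level, other than Defa26, spread more among libraries than the abundant ones. Defa5 (chr8:22437073-22438054) had 313, 466 and 1028 FPKM in the mutants and 465, 485 and 1178 FPKM in the controls. The third library of each group was the highest, and mutant 1 the lowest of all. The log2 fold change was -0.28 with an interval from -1.50 to 0.95.

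Defa20 (chr8:22619728-22620709) had 121, 264 and 669 FPKM in the mutants and 146, 331 and 852 FPKM in the controls. The groups overlapped over nearly their whole range, and the lowest and highest libraries differed 7.06-fold. Defa21 (chr8:22165224-22166196) had 57.4, 132 and 288 FPKM in the mutants and 89.7, 171 and 538 FPKM in the controls. Defa22 (chr8:22301956-22302928), its near-identical copy, had 56.7, 122 and 277 FPKM in the mutants and 97.6, 169 and 506 FPKM in the controls. In all 3 genes each mutant library lay below the control library of the same number. The log2 fold changes were -0.32 for Defa20, -0.64 for Defa21 and -0.71 for Defa22, with intervals from -2.18 to 1.55, from -2.48 to 1.20 and from -2.45 to 1.04.

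Deviations of same-numbered libraries from their group means correlated at 0.106, 0.207 and 0.389. Those of differently numbered libraries correlated at -0.275 to 0.127. A limma fit with the replicate number as a block was set beside these values. The pairing was read from the same data that the fit tests, since the labels do not say what a number marks. In it the unadjusted p was 0.0014 for Defa21, 0.00040 for Defa22 and 0.0048 for Defa20, with adjusted p-values of 0.61, 0.47 and 0.61. The block called 0 of 25 members at an adjusted p of 0.05, against 0.0126% of all tested rows. Over all members the block gave an unadjusted p under 0.05 to 3 of 25 lower in mutants and to 2 of 25 higher, Defa4 and Defa6. The block fit gave such a p to 5.09% of all tested rows as lower and 2.81% as higher. Of these 5, Defa21 and Defa22 are near-identical copies, and Defa4 and Defa6 are marked LOWDATA. Counted by direction alone, 6 of 25 members were lower in the mutant in all 3 same-numbered pairs, against 23.1% of all rows, and 1 of 25 was higher, against 10%.

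Defa26 (chr8:22728640-22729444) varied less than the other alpha-defensin rows with means of 100 to 1000 FPKM. It had 175, 155 and 169 FPKM in the mutants and 142, 178 and 207 FPKM in the controls. All 6 values lay within 1.45-fold, the groups overlapped, and the log2 fold change was -0.06 with an interval from -0.39 to 0.27. Defa25, which rested on a mean of 8.04 implied reads, had 3.69 to 9.22 FPKM in the mutants and 3.79 to 7.56 FPKM in the controls. The row Defa-ps1, annotated as a processed transcript, had 32.1, 13.9 and 18.8 FPKM in the mutants and 13.6, 20.0 and 35.5 FPKM in the controls, with the highest mutant and the lowest control among the first libraries. The pseudogenes Defa-ps12 and Defa-ps13 were listed at 0 in all 6 libraries.

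Defa4 and Defa6 are among the rows with the least certain values. Defa6 had 792 and 538 FPKM in mutants 1 and 2 and 343 and 169 FPKM in controls 1 and 2, while mutant 3 and control 3 were listed at values rounding to 0 FPKM. Its limma interval ran from -9.29 to 11.21 on the log2 scale. Defa4, annotated here as a stretch of 172 bases within Gm15315, had 442, 268 and 1046 FPKM in the mutants and 324, 187 and 927 FPKM in the controls. It was higher in the mutant in all 3 same-numbered pairs, and with Gm15315 added the sums were 980 ± 598 FPKM in mutants and 890 ± 569 FPKM in controls (SD, n = 3 each). Both rows carry the LOWDATA mark in all 6 libraries.

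Summed alpha-defensin rows were close between the groups. The 19 alpha-defensin rows summed to 22216, 23278 and 28962 FPKM in the mutants and 22205, 23092 and 30705 FPKM in the controls. Replicate 3 was the highest of each group, and the group means of 24819 ± 3627 and 25334 ± 4673 FPKM (SD, n = 3 each) gave a log2 ratio of -0.03. A further 16 rows for 13 listed symbols lie among these genes under names without Defa. Most of the symbols of these 16 rows have since been given Defa names in RefSeq. They summed to 8760, 11471 and 17594 FPKM in the mutants and 10683, 11212 and 17916 FPKM in the controls. Of their 14 tested rows 0 passed an adjusted p of 0.05, beside 0% of all tested rows. At an unadjusted p of 0.05, 0 passed, beside 1.49% of all tested rows higher and 4.32% lower. The log2 fold change was positive in 2 and negative in 12, beside 6142 and 9722 of all tested rows. The median was -0.13, beside -0.05 over all rows. Rows of this cluster share sequence, so the 14 do not count as separate observations. The listed symbols leave out Gm6696, now Defa28, and AY761185, which the sequence comparison took as cluster loci, so these sums do not cover the whole cluster. Gm15284, the nearest copy of Defa24, had 3842, 3766 and 5782 FPKM in the mutants and 4288, 3408 and 5158 FPKM in the controls.

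The order of libraries recurred across alpha-defensin rows. Control 3 was the highest of the controls in 16 of the 17 tested rows, beside 24.5% of all tested rows, and mutant 3 the highest of the mutants in 11 of 17, beside 28.7% of all tested rows. Among the 14 tested rows of the listed cluster symbols without a Defa name, mutant 3 and control 3 each led their group in 13. Of the 13 members with a mean of 100 to 1000 FPKM, 11 had a highest value more than 3-fold above the lowest. Among them were Ang4 at 3.21-fold and Pla2g2a at 101-fold, which are not alpha-defensins. Of all rows of that level 5.38% spread more than 3-fold. None of the 7 members above 1000 FPKM spread that far. The alpha-defensin and cluster rows share sequence, so they do not count as separate observations.

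Marker lists of other cells differed in which library was highest. Summed over 30 rows, genes of pancreatic acinar cells had 8872, 10290 and 24479 FPKM in the mutants and 4528, 6133 and 22591 FPKM in the controls. All 30 rows had a positive log2 fold change, as had 6142 of all 15864 tested rows. The median was 3.01, beside -0.05 over all rows. At an adjusted p of 0.05 limma called 0, beside 0% of all tested rows. It called 1 at an unadjusted p of 0.05, higher in mutants, beside 1.49% of all tested rows. Replicate 3 was highest in each group for the summed acinar genes, as it was for Defa5, Defa20, Defa21 and Defa22. This did not hold in both groups for Defa-rs7 or Defa6. Single acinar genes differed. Among mutants Pnliprp2 was highest in mutant 1, Prss1 and Zg16 in mutant 2, and Pla2g1b and Spink3 in mutant 3. Among controls Spink3 was highest in control 1 and the other named ones in control 3. The part of acinar RNA in the alpha-defensin values was not tested. The acinar list holds genes that intestine also expresses, among them Zg16, which is on the goblet list too. Zg16, with 2591 and 3878 FPKM, and Spink3, with 1627 and 1303 FPKM, made up most of the sums in controls 1 and 2. Pla2g1b, the pancreatic phospholipase, had 33.4, 21.9 and 125 FPKM in the mutants and 0.208, 2.77 and 86.9 FPKM in the controls. Crypt stem cell genes, 6 in all, summed to 354, 421 and 330 FPKM in the mutants and 413, 427 and 349 FPKM in the controls. These sums were not highest in mutant 3 or control 3. Olfm4, with 297, 364 and 271 FPKM in the mutants and 348, 365 and 286 FPKM in the controls, made up most of them. Smoc2 was highest of the controls in control 3 and Cd44 highest of the mutants in mutant 3, while Lgr5 was highest in neither. Goblet cell genes summed to 8756, 9763 and 9452 FPKM in the mutants and 7218, 8926 and 9891 FPKM in the controls. Enterocyte genes summed to 25990, 30731 and 21547 FPKM in the mutants and 18671, 30126 and 19896 FPKM in the controls, with the second library highest in both groups. Smooth muscle genes summed to 555, 471 and 628 FPKM in the mutants and 638, 754 and 899 FPKM in the controls. Of these 7 genes, 6 had an unadjusted limma p under 0.05, all lower in mutants, beside 4.32% of all tested rows. At an adjusted p under 0.05 there were 0, beside 0% of all tested rows. Over all rows the tilt was 237 higher and 685 lower here, but 498 higher and 413 lower with median-of-ratios scaling. The smooth muscle list was not counted under other scalings. Genes of stomach and Brunner glands summed to 244, 215 and 92.1 FPKM in the mutants and 690, 38.7 and 273 FPKM in the controls, with Muc5ac at 0. Macrophage and neutrophil genes summed to 324, 310 and 342 FPKM in the mutants and 355, 309 and 306 FPKM in the controls, with Elane at 0. The part of these cells in the members' levels was not tested.

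**Figure D3:**
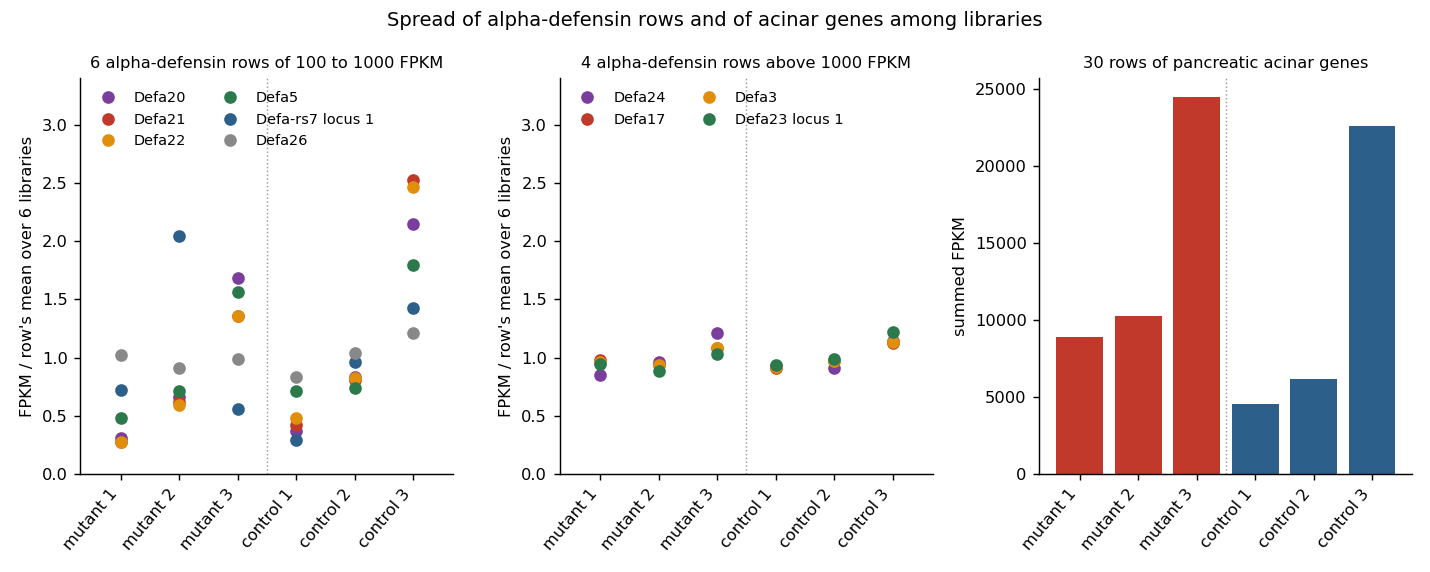
FPKM divided by each row's mean over 6 libraries (y axes, left and middle) for 6 alpha-defensin rows with means of 100 to 1000 FPKM and 4 above 1000 FPKM, and the summed FPKM of 30 rows of acinar genes (y axis, right), by library with mutants left of controls. Most rows on the left are highest in mutant 3 and control 3, the exceptions being Defa26 and Defa-rs7 among mutants, while the 4 abundant rows stay near 1 in all libraries.

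The upstream regions of Defa20, Defa21 and Defa22 are shown. These alpha-defensin genes had the widest spread among rows not marked LOWDATA. The lines give the 100 bases before the annotated start in RefSeq on GRCm38.p6, plus strand, for Defa20 (chr8:21509158-21509257), Defa21 (chr8:21025445-21025544) and Defa22 (chr8:21162177-21162276). Capitals mark TCAAAG, the reverse complement of CTTTGA, a core sequence bound by TCF factors of the Wnt pathway, which is known to drive Paneth cell genes in the mouse.
Defa20: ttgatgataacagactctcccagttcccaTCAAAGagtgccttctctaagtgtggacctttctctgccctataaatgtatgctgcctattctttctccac
Defa21: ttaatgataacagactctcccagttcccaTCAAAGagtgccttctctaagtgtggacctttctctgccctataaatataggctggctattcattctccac
Defa22: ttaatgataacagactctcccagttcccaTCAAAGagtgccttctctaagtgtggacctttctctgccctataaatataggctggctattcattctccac

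Defa21 and Defa22 differed at 0 of these 100 bases, and Defa20 differed from each at 5. Searched on both strands for CTTTGA or CTTTGT, with 250 bases before and 50 after the start, 13 of 16 promoters of genes named Defa held a match, beside 31.2% of all 32851 promoters in the table. Promoters were matched for part of the members only, and 9 of these 13 windows held a match. Defa20, Defa21, Defa22, Defa23 and Defa-rs7 held 3 matches each. Lyz1 and Ang4 held 1 each, and Itln1, Ang, Habp2 and Nupr1 held 0. Mmp7 entered with more than 1 window, of 1 and 2 matches, so the windows are not all separate genes. The order of the mutant libraries in Defa23 and Defa-rs7 differed from that in Defa20, Defa21 and Defa22, while the order of the controls was the same. The part of such matches in the levels was not tested. Promoters of similar copies do not count as separate observations beside the share of all promoters. Such letters are a description and do not show binding.

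Of the other products, Lyz1 (chr10:116724851-116729924), the lysozyme of Paneth cells, had 1575, 2486 and 3473 FPKM in the mutants and 2811, 2572 and 4317 FPKM in the controls. Each mutant library was below the control of the same number, and the groups overlapped. The log2 fold change was -0.40 with an interval from -1.19 to 0.39 (limma adjusted p = 0.81). Lyz2, the lysozyme of macrophages and the near copy of Lyz1, had 132, 133 and 149 FPKM in the mutants and 169, 127 and 146 FPKM in the controls. Its level was far lower than that of Lyz1 in every library.

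Itln1 (chr1:173448255-173465425), a lectin that binds microbial sugars, had 1683, 1043 and 1447 FPKM in the mutants and 1364, 1106 and 1582 FPKM in the controls. The second library was the lowest in both groups, and the log2 fold change was 0.03 with an interval from -0.48 to 0.54. Ang4 (chr14:52383567-52393265), a ribonuclease with antimicrobial activity, had 1832, 710 and 570 FPKM in the mutants and 993, 793 and 784 FPKM in the controls. Mutant 1 was the highest and mutant 3 the lowest of all 6, so the controls lay inside the range of the mutants. Without mutant 1 the log2 fold change of Ang4 was -0.42, against 0.09 with it. Ang, the related angiogenin, had 14.9, 15.6 and 31.2 FPKM in the mutants and 23.1, 17.1 and 26.0 FPKM in the controls.

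Pla2g2a (chr4:138387772-138391104), a secreted phospholipase that attacks bacterial membranes, took either a high or a low level. It had 1542, 15.2 and 1492 FPKM in the mutants and 1388, 16.4 and 28.7 FPKM in the controls. Mutants 1 and 3 and control 1 were high, the other 3 libraries were low, and the extremes differed 101-fold. Each value had a narrow interval, which in the authors' table ran from 1517 to 1567 FPKM in mutant 1 and from 13.2 to 17.2 FPKM in mutant 2. Nearly all of it lay on the transcript of 794 bases, since the second transcript of the gene was at or below 0.0332 FPKM in every library. The mm9 annotation used here calls the gene a processed transcript, not a protein-coding gene. It is known in mouse genetics as a gene that some inbred strains carry in a defective form, and the labels give mixed background for all 6 libraries. The labels do not say which form of Pla2g2a a library carried, and the part of this in its high and low levels was not tested. The log2 fold change was 1.91 with an interval from -3.51 to 7.33 (limma adjusted p = 0.86), and it was 0.02 without replicate 3 of both groups and 0.71 to 4.12 with any 1 library left out.

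Mmp7 (chr9:7692111-7699416), the protease that activates the mouse alpha-defensins, had 146, 118 and 182 FPKM in the mutants and 144, 101 and 212 FPKM in the controls. In both groups the second library was the lowest and the third the highest, and the log2 fold change was 0.00 with an interval from -0.66 to 0.67. Habp2, a hyaluronan-binding serine protease, had 4.24, 4.38 and 5.11 FPKM in the mutants and 4.73, 4.02 and 6.84 FPKM in the controls. Nupr1 (chr7:133766760-133768984), a small stress-induced nuclear protein also known from exocrine pancreas, had 30.4, 31.5 and 59.0 FPKM in the mutants and 23.9, 19.1 and 67.2 FPKM in the controls. It was highest in mutant 3 and control 3, as the summed acinar genes were, and the part of acinar RNA in its level was not tested.

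**Figure D4:**
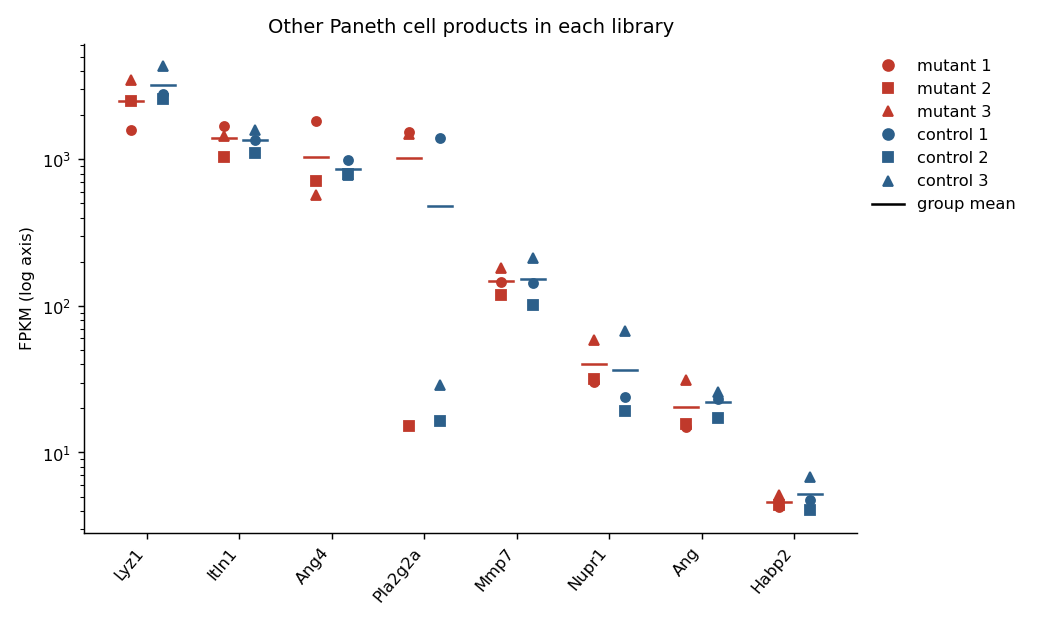
FPKM on a log axis (y axis) of the 8 other Paneth cell products (x axis), ordered by mean, with mutants in red left of controls in blue, symbols for replicate numbers and lines for group means. Pla2g2a splits into 3 libraries between 1388 and 1542 FPKM and 3 between 15.2 and 28.7 FPKM, with both groups in each, and the groups of every gene overlap.

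Companion genes of Paneth cells, 44 symbols for regulators, signals, autophagy genes and further secreted proteins, were taken from a list chosen with earlier results known. Of these, 39 had a row, 35 rows were tested and 0 passed an adjusted p of 0.05, beside 0% of all tested rows. At an unadjusted p under 0.05, 0 were higher in mutants and 2 were lower, beside 1.49% and 4.32% of all rows. With median-of-ratios scaling 0 were higher and 0 lower, and with quantile normalization 0 were higher and 1 lower. The median log2 fold change was -0.03. The 2 lower genes were Fzd5, a Wnt receptor needed for Paneth cell maturation in the mouse, and Atoh1, the transcription factor that sets secretory fate. Fzd5 had 19.8, 19.1 and 18.7 FPKM in the mutants and 22.1, 21.4 and 20.8 FPKM in the controls, with no overlap (log2 fold change -0.16, limma adjusted p = 0.79). Atoh1 had 5.91, 8.17 and 6.99 FPKM in the mutants and 7.93, 9.54 and 8.93 FPKM in the controls, with overlap (log2 fold change -0.33, limma adjusted p = 0.79). Of the 44 beta-defensin rows, the family made by other epithelia, 40 were at 0 in every library.

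The authors' 2 quantifications of the same libraries differed widely for the alpha-defensins. Over 10366 genes with 1 row and 1 transcript, the mean count in the authors' deposited table divided by the reads implied by the FPKM intervals was 0.996 at the median, and the quartiles were 0.981 and 1.02. For Defa24 the authors' deposited table gave a mean count of 29.4 over all libraries, against 39319 implied reads, 0.0748% of them. The table gave 687 for Defa3 against 13052, 1944 for Defa17 against 14245, and 331 for Defa5 against 2802. Defa23, Defa-rs7, Defa4 and Defa6 were at 0 in the authors' deposited table although each had implied reads. Of 17 alpha-defensin symbols 7 were under 10% of their implied reads, as were 1.22% of the genes compared, and 2 reached 50% or more, among them Defa26 at 113%. The filters differ: the genes compared had 1 row and at least 20 implied reads. Of the 7, Defa23 and Defa-rs7 have 2 rows each and Defa25 had 8.04 implied reads. The 17 symbols also hold Defa-ps12 and Defa-ps13, which had 0 implied reads. The other Paneth products were close, from 89.1% for Ang to 117% for Mmp7.

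The authors' deposited folds are given beside the FPKM values for the genes that both cover. For Defa21 the authors' deposited table gave a log2 fold of -0.80 with an unadjusted p of 0.46, and for Defa22 one of -0.94 with 0.33. For Defa17 it gave 0.08, for Defa3 -0.11, for Lyz1 -0.30 and for Pla2g2a 1.20. Every member with a p in the authors' deposited table had an adjusted p of 1. Whole reads were also rarer among alpha-defensin rows: of 39 implied read numbers under 500, 28.2% lay within 0.05 of a whole number, beside 88.3% of 50465 values of genes with 1 row and 1 transcript. The cause of either difference was not tested.

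**Figure D5:**
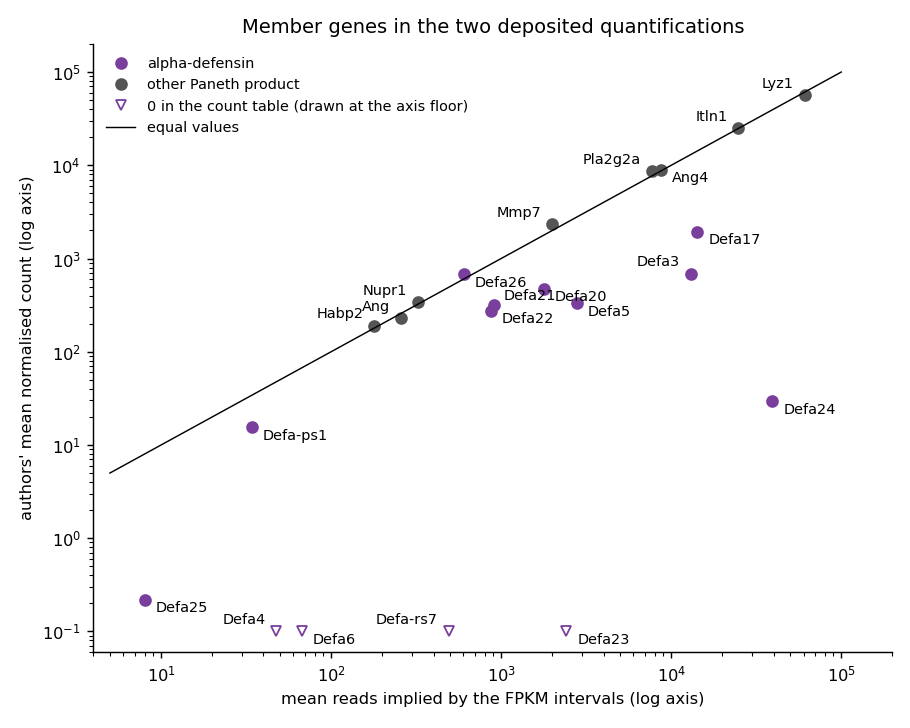
Mean reads implied by the FPKM intervals (x axis, log) against the authors' mean normalised count (y axis, log) for member symbols above 0 in FPKM, with purple for alpha-defensins and grey for other products. The other products lie on the line of equal values, most alpha-defensins lie below it, Defa24 lies farthest below among those above 0, and 4 are drawn at the axis floor because the count table has 0.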

How the data were processed

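RNA sequencing of duodenum was compared between 3 mutant and 3 control libraries, grouped by the genotype labels. The submitters' processing notes name build mm9 with CASAVA 1.8.2, with TopHat, with Cufflinks and with DESeq. No source used here gives the read length, the read counter or the remaining versions. The authors' gene and transcript tables hold FPKM with a confidence interval, per the file headers, and the transcript tables hold coverage, a signal of mean depth. The authors' deposited comparison holds mean counts divided by size factors (a signal), a fold as a ratio and as log2, and p-values. Every per-sample FPKM column was used.

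Groups were compared on log2(FPKM + 0.1) with limma 3.58.1 (R 4.3.3, trended prior), over the 15864 rows whose mean reached 0.1 FPKM, with Benjamini-Hochberg adjustment. Folds of low genes are understated by the pseudocount. Reads behind a value were worked out from its interval, whose upper bound lies 2 standard errors above it, and their number limits precision by counting error only. The deviations of same-numbered libraries from their group means correlated at 0.106, 0.207 and 0.389, so the numbers were taken as pairs in a block fit. Differently numbered libraries correlated at -0.275 to 0.127, the highest being mutant 2 with control 1, and the labels do not say what a number marks. The test was checked on simulated data. The counts and sums over members include 1 row that is not reported here on its own. The members and gene lists were chosen with earlier results of these data known. Named genes were all 8 other products, each alpha-defensin row with a mean of at least 10 FPKM, and up to 3 genes of smallest p and 2 of highest level per list. Row starts were moved to 1-based positions. Sequences came from the mm9 genome's annotation and from RefSeq (GRCm38.p6), and copies were compared base by base without gaps. Alternatives were other pseudocounts, filters, scalings, the block, transcript sums, implied reads and each library left out.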

Additional observations from a re-analysis of the deposited data

How the results depend on the processing

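No member passed an adjusted p of 0.05 under any of the 18 alternatives, among 450 member values, and the smallest adjusted p was 0.47 for Defa22 with the replicate block. That block changed no call of a member and gave an unadjusted p under 0.05 to 5 members, against 0 without it. Leaving out 1 library gave 0 to 1 such members (Ang4 without mutant 1, Ang without mutant 3, Nupr1 without control 3). Nupr1 and Defa6, 2 members, had one without replicate 3 of both groups, an alternative chosen after seeing the data. With 1 library left out, the median log2 fold change ran from -0.20 to 0.12 for members, -0.0589 to 0.0226 for companions and -0.48 to 0.14 for cluster loci. The log2 ratio of group means then ran from -0.16 to 0.13 for the summed alpha-defensins and -0.15 to 0.0294 for the members' share of all FPKM, so the sign of each of these 5 turned with the library left out. Median-of-ratios scaling gave 0.0305 for the members' median and 0.0166 for the summed alpha-defensins. The sign of a fold change that was not called turned in 20 of 25 members under at least 1 alternative. Quantile normalization gave -0.0497 for Itln1 and -0.0757 for Mmp7, and rescaling without acinar genes gave -0.0133 for Itln1, -0.0305 for Defa24 and -0.0392 for Mmp7. Median-of-ratios scaling gave 0.0305 for Defa3 and 0.0430 for Defa17, and implied reads gave -0.0252 for Defa25 and -0.0029 for Defa24. Without replicate 3 of both groups the values were 0.0073 for Defa3, 0.0525 for Defa26, 0.0217 for Defa17, 0.35 for Defa-ps1 and -0.0249 for Defa24. The cause of these turns was not tested.

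With 1 library left out, log2 fold changes ran from -0.12 to 0.22 for Itln1, -0.51 to 0.0218 for Ang, -0.42 to 0.42 for Ang4, -0.31 to 0.0624 for Habp2, -0.0621 to 0.84 for Nupr1 and -0.26 to 0.27 for Mmp7. They ran from -0.13 to 0.13 for Defa24, -0.0707 to 0.0802 for Defa17, -0.0845 to 0.0692 for Defa3, -0.21 to 0.0635 for Defa26 and -0.75 to 0.16 for Defa5. They ran from -0.95 to 0.34 for Defa20, -1.23 to 0.0650 for Defa21, -1.29 to -0.0484 for Defa22, -0.67 to -0.0997 for Lyz1, -0.27 to 0.41 for Defa25 and -0.40 to 0.30 for Defa-ps1. For Defa4 the range was -0.15 to 1.02, for Defa6 -2.78 to 5.18 and for each locus of Defa-rs7 -0.32 to 0.81 and -0.33 to 0.81.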
